A study of Mus musculus with 2 samples.

Results

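The genes described here are the ubiquitin-specific proteases (Usp followed by a number) and the ubiquitin-conjugating, or E2, enzymes (Ube2 followed by a letter) of the mouse. They were chosen by name among autosomal protein-coding genes, leaving out Usp17l genes, Usp18 and the testis Dub genes, by a rule that uses no binding value, although the family was picked with earlier results of these data known. The rule found 78 genes, 44 Usp and 34 Ube2, among 20364 autosomal protein-coding genes with a known strand. It also takes in Usp6nl, a Rab GTPase-activating protein, and Ube2cbp, an E2-binding ligase, which share the name and not the enzyme activity. The data were ELF1 ChIP-seq peak lists from CH12.LX, an immortalized B-cell lymphoma line of the mouse strain B10.H-2aH-4bp/Wts. There were 2 biological replicates in 1 group with no treatment named, and both came from the same cell line and donor record. The lists hold no expression values, so the labelled cell type was not checked against markers, and read depth is unknown from them.

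Ubiquitin is a small protein that is attached to other proteins through a relay of an E1 activating enzyme, an E2 conjugating enzyme and an E3 ligase. The E2 carries the activated ubiquitin and, with the E3, often sets which kind of chain is built. Ubiquitin-specific proteases are the largest family of deubiquitinases and take ubiquitin off again, which edits or ends the signal. In B cells, ubiquitin chains take part in NF-kB signalling, DNA repair, protein quality control and cell division. ELF1 is an ETS-family transcription factor, and ETS proteins bind DNA around a GGAA core, with CCGGAAGT as a strong form of the site.

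The sequences under the strongest of these peaks are shown first, because the base content and the ETS words that they hold recur in the results. They are the 4 strongest Usp and the 4 strongest Ube2 promoter peaks of the mm9 list, read from the mm9 (NCBIM37) genome within 50 bp of the summit and written 5′ to 3′ on the strand of the gene. Runs were shortened where more than 30 bases fell in annotated exons. Capitals mark CGGAA or its other-strand form TTCCG, and in Usp32 the full word CCGGAAGT. They lie at chr2:126532901-126533001 on the plus strand (Usp8), chr8:83538787-83538816 on the minus strand (Usp38), chr11:84953714-84953814 on the minus strand (Usp32) and chr11:118151653-118151753 on the minus strand (Usp36). The Ube2 windows lie at chr3:135101200-135101290 on the plus strand (Ube2d3), chr16:17201633-17201662 on the minus strand (Ube2l3), chr11:95926597-95926626 on the minus strand (Ube2z) and chr2:167457680-167457780 on the minus strand (Ube2v1).
Usp8: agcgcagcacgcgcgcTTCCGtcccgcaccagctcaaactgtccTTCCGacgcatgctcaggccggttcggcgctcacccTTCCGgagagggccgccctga
Usp38: TTCCGggttcagggtgTTCCGcgcctccgg
Usp32: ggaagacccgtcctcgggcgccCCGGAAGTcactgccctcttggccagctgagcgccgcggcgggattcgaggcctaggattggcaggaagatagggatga
Usp36: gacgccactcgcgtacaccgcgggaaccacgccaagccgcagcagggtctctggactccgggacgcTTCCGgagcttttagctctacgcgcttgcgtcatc
Ube2d3: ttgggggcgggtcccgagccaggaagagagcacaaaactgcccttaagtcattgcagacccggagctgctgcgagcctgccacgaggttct
Ube2l3: TTCCGcgctcttcccggttagcccctcccc
Ube2z: cggacgtgctgctgagcagtccCGGAAgcg
Ube2v1: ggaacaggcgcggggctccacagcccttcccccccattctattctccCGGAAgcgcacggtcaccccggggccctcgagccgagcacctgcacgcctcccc
In Usp8 CGGAA occurred 3 times, in Usp38 2 times and in Ube2d3 not at all within the printed bases. Ube2d3 had the highest mm9 signal of all these genes, 974. The runs of Usp38, Ube2l3 and Ube2z lie wholly in annotated exons, those of Usp8, Usp32, Usp36 and Ube2v1 outside them, and 30 bases of the Ube2d3 run are exonic.

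Most of these genes carried an ELF1 peak at their promoter. A gene was called bound when the summit of a peak in the optimal mm10 list lay within 1 kb of its RefSeq 5′ end. By this measure 57 of 78 genes (73.1%, exact 95% binomial interval 61.8 to 82.5%, counting error only) were bound, against 40.3% of all 20364 genes. The Usp genes had 31 of 44 bound (70.5%, interval 54.8 to 83.2%) and the Ube2 genes 26 of 34 (76.5%, interval 58.8 to 89.3%), and these intervals overlap over most of their length. The signal of a peak, column 7 of the list, is the authors' own value on a scale that is not stated, and was used to rank peaks within 1 list. The bound genes had a median signal of 121, with quartiles of 34.3 and 247 and a range from 15.5 to 369. All bound genes together had a median of 98.0 and quartiles of 47.5 and 203. The 2 families had close medians, 121 for Usp and 128 for Ube2.

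The bound genes reached from low to high signals. The signal was above the upper quartile of all bound genes in 18 of 57 (31.6%, interval 19.9 to 45.2%). It was below the lower quartile in 17 of 57 (29.8%, interval 18.4 to 43.4%). Both intervals cover the 25% of all bound genes, so neither share is set apart from the background. No bound Ube2 gene had a signal between 31 and 80, whereas 8 Usp genes did. The nearest Ube2 genes to either side were Ube2w (30.03) and Ube2d1 (80.4). This range was set from the values of the Ube2 genes, and the share of all bound genes in it was not counted.

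**Figure D1:**
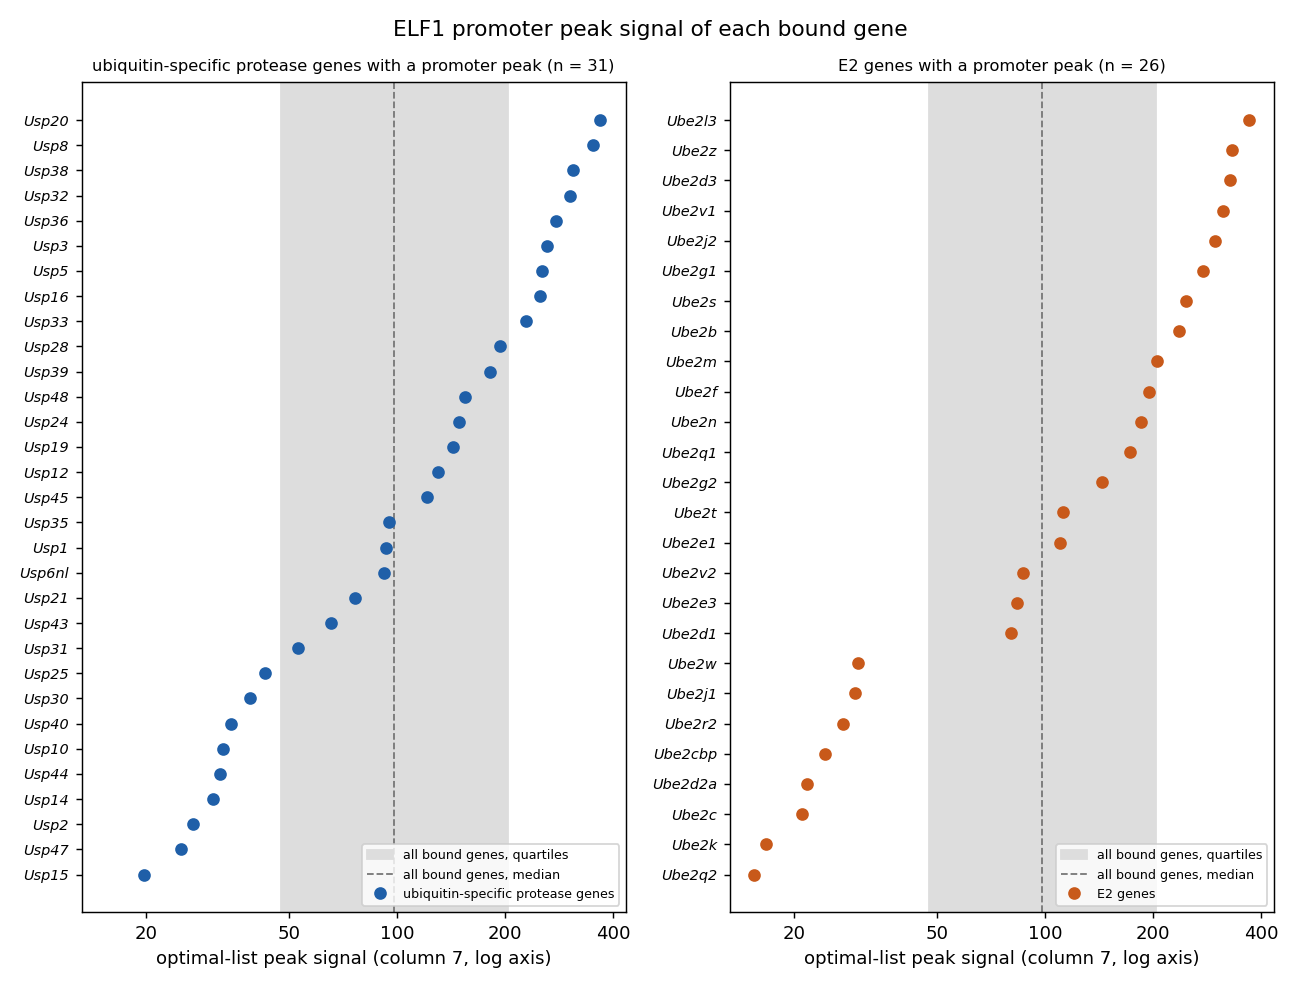
Optimal-list peak signal (log axis, scale not stated) of each bound gene, 31 Usp and 26 Ube2 genes in separate panels with 1 point a gene; the dashed line and the grey band give the median and quartiles of all bound genes. Both families run from under 20 to about 369. The Ube2 panel has no gene between 30.03 and 80.4, a range set from the values themselves.

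Among Usp genes listed for histone deubiquitination and DNA damage, 8 of 11 were bound; a gene can stand in more than 1 of the role lists, so their counts do not add up to the family totals. Usp36, a nucleolar protease that also acts on MYC, had the highest signal of the list at 277, from 124 in replicate 1 and 155 in replicate 2. Usp3, which acts on ubiquitinated histone H2A, had a signal of 262, with 101 in replicate 1 and 164 in replicate 2. Usp16, also an H2A protease, had 250.5, with 112 and 140.2. These 3 promoters stood above the upper quartile of all bound genes, and in each the second replicate was the higher.

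Usp28, known for its link to 53BP1 and MYC, followed at 194, with 87.8 in replicate 1 and 103 in replicate 2. The other bound genes of this list were lower: Usp1 92.8, Usp21 76.5, Usp44 32.1 and Usp47 25.1. Usp1 is the protease of PCNA and FANCD2, and Usp44 is known from the spindle checkpoint. The unbound genes were Usp7, a protease of the MDM2 and p53 pathway, Usp22, the protease of the SAGA coactivator, and Usp49, an H2B protease.

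Genes that work at the endosome or in signalling had 8 of 9 bound, and they held the top 2 Usp signals. Usp20, a protease that binds the VHL ligase, had 368, with 157 in replicate 1 and 212 in replicate 2. Its peak spans chr2:30981799-30982068 on mm10, with the summit 359 bp upstream of the 5′ end. The 5′ end of BC005624, on the opposite strand, lies 338 bp upstream of that of Usp20. The summit is thus closer to BC005624, and the peak cannot be assigned to Usp20 alone. Usp20 had no promoter peak in the mm9 list. Usp8, which acts on receptors at the endosome, had 352, with 168 and 185, and its peak at chr2:126707047-126707430 had the summit 24 bp downstream of the 5′ end.

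Usp32, a protease anchored in membranes, had 303, with 149 in replicate 1 and 155 in replicate 2. Usp48 had 154, with 45.5 in replicate 1 and 103 in replicate 2 at that summit. Its strongest replicate 1 entry within 1 kb was another one, 72.6 at 52 bp from the 5′ end. The others were Usp6nl at 92.1, Usp31 at 53.0, Usp10 at 32.8 and Usp2 at 26.9, the last with 10.6 and 17.8 in the replicates. Usp34, a very large protease known from Wnt signalling, was the unbound one.

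Among Usp genes of the proteasome, endoplasmic reticulum and mitochondria 6 of 7 were bound. Usp5, which takes apart free ubiquitin chains, had 253, with 133 in replicate 1 and 120.5 in replicate 2. Usp33, the close relative of Usp20, had 228, with 106 and 123. Usp19, which is anchored in the endoplasmic reticulum, had 143. The remaining bound genes were under the lower quartile of all bound genes: Usp25 at 42.7, Usp30 at 38.9 and Usp14 at 30.6. Usp30, the protease of the outer mitochondrial membrane, had the highest ratio of replicate 2 to replicate 1 of all these genes (4.43), with 7.07 in replicate 1 and 31.3 in replicate 2. Usp14, which is bound to the proteasome, was even, at 16.7 and 14.4. Usp13, the close relative of Usp5, was unbound.

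Of the genes linked to splicing 2 of 3 were bound. Usp39, a spliceosome component without protease activity, had 182, with 83.5 in replicate 1 and 97.2 in replicate 2. Usp15 had the lowest Usp signal, 19.8, with 10.2 and 9.02, and its summit lay 943 bp downstream of the 5′ end. Its paralogue Usp4 was unbound at its 5′ end. The group that works with WD40 cofactors had 2 of 3 bound, Usp1 and Usp12 (129.8), and Usp46 was unbound.

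Of 4 genes listed here as lacking protease activity, a label that peak lists cannot check, only Usp39 was bound, beside 40.3% of all genes. Usp50, Usp53 and Usp54 were not. In the germ cell or tissue-restricted list 3 of 5 autosomal genes were bound, at low to middle signals: Usp43 65.6, Usp44 32.1 and Usp2 26.9. Usp29 and Usp50 were unbound. Outside these lists Usp38 stood out with 309, from 144 in replicate 1 and 163 in replicate 2, and Usp24 (149), Usp45 (121), Usp35 (94.8) and Usp40 (34.3) were also bound. Usp47 at 25.1 had 14.4 and 11.0 in the replicates, so the 3 weakest Usp peaks were those of Usp2, Usp47 and Usp15. Usp37 and Usp42 completed the 13 unbound Usp genes.

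The E2 enzymes that build or extend lysine 63 chains were bound throughout. Ube2v1, an E2 variant that pairs with Ube2n in NF-kB signalling, had 313, with 139 in replicate 1 and 173 in replicate 2. Ube2n, the active E2 of the pair, had 184, with 82.1 and 100.1. Ube2v2, the variant used in DNA damage tolerance, had 86.9. All 4 genes of the DNA repair list were bound too, with Ube2b, one of the mouse RAD6 proteins, at 237 (92.4 and 140.5) and Ube2t, the E2 of the Fanconi anaemia pathway, at 112.

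The E2 enzymes of endoplasmic reticulum-associated degradation had 5 of 5 bound, in 2 tiers. Ube2j2, anchored in the membrane, had 297, with 138 in replicate 1 and 159 in replicate 2. Ube2g1 had 275, with 111.5 and 161, and Ube2g2 had 144. Ube2j1, the membrane-anchored relative of Ube2j2, had 29.6 and Ube2k 16.7, both under the lower quartile. The paralogues Ube2j2 and Ube2j1 thus stood on opposite sides of the quartiles.

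The cell cycle list had 3 of 3 bound. Ube2s, which extends chains for the anaphase-promoting complex, had 247, with 106 in replicate 1 and 140 in replicate 2. Ube2c, which starts those chains, had 21.1, with 11.1 and 9.25, one of the 3 weakest Ube2 peaks. Ube2r2, an E2 of cullin ligases, had 27.4, and its summit lay 920 bp upstream of the 5′ end.

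The UBE2D and UBE2E list, E2 enzymes that work with many ligases, had 6 of 8 bound. Ube2d3 had 327, with 132 in replicate 1 and 195 in replicate 2. Ube2e1 (110.02), Ube2e3 (83.4) and Ube2d1 (80.4) lay near the median of all bound genes. Ube2w, which attaches ubiquitin to protein N-termini, had 30.03 and Ube2d2a 21.8. For neither did the replicate 1 list hold a summit within 100 bp of the optimal summit. Ube2e2 and Ube2d2b were unbound.

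E2 enzymes of ubiquitin-like modifiers had 3 of 5 bound, all near or above the upper quartile of all bound genes. Ube2z, which passes on FAT10 and ubiquitin from Uba6, had 332, with 159 in replicate 1 and 173 in replicate 2. Ube2m and Ube2f, the E2 enzymes of NEDD8, had 205 (99.5 and 107) and 195 (69.3 and 128.5). Ube2l6, the E2 of ISG15, was among the unbound.

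In the list of other Ube2 genes, which also holds Ube2r2, 5 of 9 were bound. Ube2l3, which serves HECT and RBR ligases, had the highest signal of all, 369, with 164 in replicate 1 and 204 in replicate 2, at chr16:17201377-17201682 on mm10 with the summit 31 bp upstream of the 5′ end. Ube2q1 had 172.5, with 83.6 and 88.8, whereas its paralogue Ube2q2 had the lowest signal, 15.5. Ube2q2 had 6.49 in replicate 1 and no summit within 100 bp of the optimal summit in replicate 2. Ube2cbp had 24.3. The unbound genes were Ube2h, Ube2o, Ube2ql1 and Ube2u.

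The 21 unbound genes did not form 1 class. In the pooled relaxed list, which holds weak entries and background alike, 11 had some entry within 1 kb and 10 had none: Usp13, Usp29, Usp34, Usp37, Usp49, Usp53, Ube2d2b, Ube2e2, Ube2ql1 and Ube2u. Several had an optimal peak at another start of the same gene in the RefSeq promoter table: Usp4 (190 by signal, 1327 bp away), Usp34 (145, 3209 bp away), Usp37 (57.0) and Usp7 (51.4). Usp42 had a peak of 242 at 1524 bp, and Ube2h one of 200 at 4037 bp, inside the gene. Usp49 had a peak of 29.2 at 1325 bp.

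For Usp22 the strongest entry within 1 kb was 28.9 in the relaxed pooled list (433 bp from the 5′ end), 27.6 in replicate 2 (467 bp) and 20.4 in replicate 1, the last at another summit (156 bp). Ube2o (18.2 in the pooled list), Usp46 (16.1) and Ube2l6 (12.7) also had weak entries, and Usp50 (9.66) and Usp54 (8.44) weaker ones. The unbound status turned for Ube2o and Usp46 in the conservative list, for Ube2o also without replicate 1, and for Usp22 when either replicate was left out. The farthest from any optimal summit were Ube2e2 at 562466 bp, Ube2u at 450014 bp and Usp29 at 347341 bp.

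The replicates can be set side by side at the bound promoters. A summit within 100 bp was found in both replicates' relaxed lists for 53 of 57 bound genes, beside 93.6% of all bound genes. The optimal list was itself drawn from the relaxed lists by reproducibility rank, and these also hold background. A match in both is therefore no independent check of a peak. The Usp genes had both entries in 31 of 31 and the Ube2 genes in 22 of 26. The 4 without a match to the optimal summit were Ube2w and Ube2d2a in replicate 1, and Ube2k and Ube2q2 in replicate 2. All 4 had optimal signals at or below 30.03, that of Ube2w. Each had another entry within 1 kb of the 5′ end in the unmatched replicate. These were 4.98 for Ube2w, 8.21 for Ube2d2a, 14.6 for Ube2k and 11.3 for Ube2q2. Where both were present, replicate 2 was the higher in 43 of 53 and the median ratio of replicate 2 to replicate 1 was 1.25, close to the 1.28 over all bound genes. The ratio ran from 0.516 for Usp44 to 4.43 for Usp30. For Usp44 the strongest replicate 2 entry within 1 kb was another one, 21.3 at 35 bp from the 5′ end. The depth of the replicates is unknown, so no error of a single ratio can be given.

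**Figure D2:**
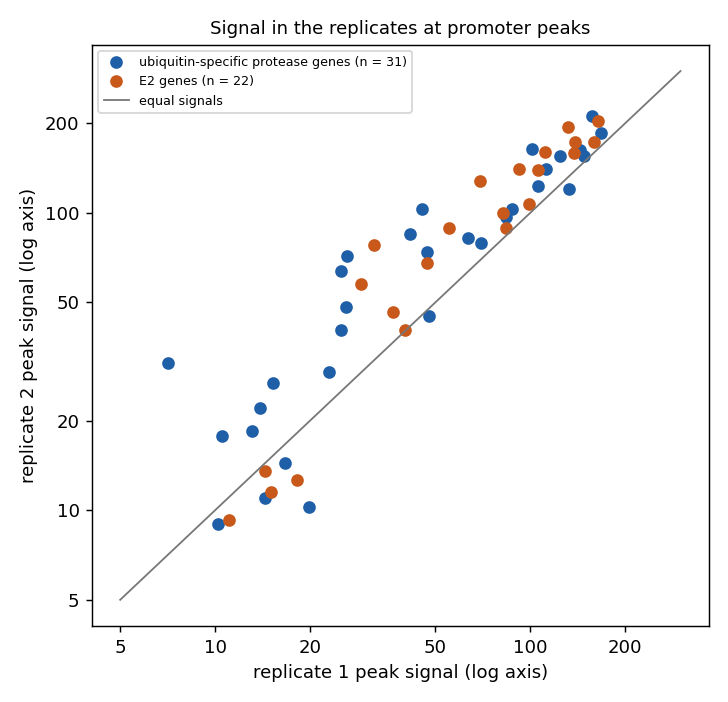
Peak signal in replicate 2 against replicate 1 (both log axes) at the promoter peaks of 31 Usp and 22 Ube2 genes with an entry in both lists; the line marks equal signals. Most points (43 of 53) lie above the line, and Usp30 at 7.07 and 31.3 is the farthest from it.

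Summits lay somewhat farther from the 5′ end than at bound genes in general. The median distance was 132 bp, beside 85 bp over all bound genes, and 26 of 57 summits were within 100 bp, beside 54.1%. The exact 95% binomial interval of that share (45.6%, interval 32.4 to 59.3%) covers the background. The summit was downstream of the 5′ end in 30 of 57. In 8 genes it lay over 500 bp away, as in Usp15, Usp44, Usp43, Ube2r2 and Ube2s. For neither count was the share over all bound genes computed, so they are description only. Usp44 also had an optimal summit of 29.3 at 23 bp, beside its strongest of 32.1 at 755 bp. A second summit within 1 kb was found in 10 of 57, beside 24.1%, with 3 summits at Usp38 and at Usp5. Further optimal peaks inside the gene, over 1 kb from RefSeq starts, were found in 22 of 78, beside 21.6%. The median gene was 46.6 kb long, against 17.6 kb over all genes; its part in that count was not tested. Usp3 held 4 inner peaks, the strongest of 76.4.

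**Figure D3:**
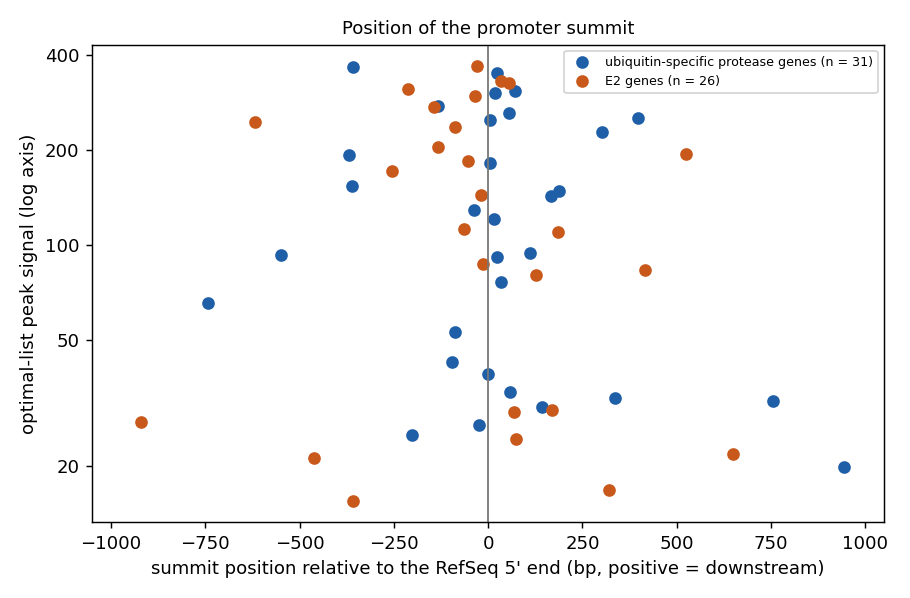
Position of the summit along the gene in bp from the 5′ end (0; negative is upstream) against optimal-list signal (log axis) for the 57 bound genes. The summits fall on both sides of the 5′ end, 30 of them downstream, and those over 500 bp away include Usp15 with 19.8 and Ube2s with 247. All bound genes are not shown for comparison.

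Divergent promoters, at which a protein-coding gene on the opposite strand starts within 1 kb, were found in a share near that of all genes. With RefSeq 5′ ends 7 of 78 genes (8.97%, interval 3.7 to 17.6%) had such a partner, beside 11.2% of all genes. Within 500 bp the shares were 8.97% and 9.48%. Of the 7, 6 were bound, beside 83.1% of all genes with a partner, and among those without a partner 51 of 71 were bound, beside 35%. The difference between these groups was not tested. The bound pairs were Usp20 with BC005624 (338 bp between the 5′ ends), Usp5 with Cdca3 (46 bp), Usp35 with Kctd21 (0 bp), Ube2k with Smim14 (96 bp), Usp45 with Tstd3 (-50 bp) and Usp32 with 1700125H20Rik (-108 bp), where a negative gap means that the 2 genes overlap at their starts. Cdca3 is a cell division protein. Usp29 was the unbound one, with the imprinted gene Peg3 as partner 97 bp away.

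The 6 bound genes with a partner had a median signal of 187, from 16.7 in Ube2k to 368 in Usp20, and the 51 without had a median of 112. Over all bound genes the medians were 144 with and 85.3 without a partner. A peak was shared with another protein-coding 5′ end in 6 of 57, beside 23.7%, and the peak then cannot be assigned to 1 of the 2 genes. A further 7 shared the peak only with the start of a noncoding gene. The share of all bound genes that do so was not computed, so this count is description only. With the GENCODE M1 starts on mm9, 7 of 77 genes had a partner, beside 12.2%, and with partners of any biotype 15 of 77 (19.5%) had one, beside 17.5%. The protein-coding pairs were those of Usp20, Usp5, Usp45, Usp31, Usp37, Ube2q1 and Ube2k. Of these 7 genes 3 were bound in the mm9 list (Usp45, Usp31 and Ube2q1), beside 73.1%, while 45 of 70 without a partner were, beside 32.6%.

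The older mm9 list, called on both replicates with all GENCODE M1 starts, gave 48 of 77 genes bound (62.3%, interval 50.6 to 73.1%), beside 37.5% of 21418 genes. Usp35 is not annotated as protein-coding there. The Usp genes had 26 of 43 bound and the Ube2 genes 22 of 34. The median mm9 signal was 176 against 142 over all bound genes. Both lists gave the same status for 41 bound and 14 unbound genes, and 22 differed.

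Bound on mm10 and not on mm9 were 15 of 56, beside 15.7%: Usp2, Usp5, Usp14, Usp15, Usp20, Usp40, Usp44, Usp47, Usp48, Ube2c, Ube2k, Ube2q2, Ube2r2, Ube2cbp and Ube2d2a. All but Usp20, Usp5 and Usp48 had optimal signals below the lower quartile. Of the 18 strongest, above the upper quartile, 2 had no mm9 promoter peak, Usp20 and Usp5, beside 7.85% of all such genes. The summit nearest the 5′ end lay 359 bp away in Usp20 and 398 bp away in Usp5, whereas Usp48 had a second summit of 142 at 55 bp beside its strongest at 361 bp. Bound on mm9 and not on mm10 were 7 of 21, beside 8.95%, among them Usp4 (mm9 signal 292), Usp34 (166), Usp42 (88.7), Usp7 (51.4), Usp22 (45.3) and Ube2h (38.0). The mm9 count uses every annotated start, and of the genes named all but Usp22 and Ube2h also had an optimal peak at another RefSeq start or within 2 kb on mm10. The rank of Ube2b also moved, from 237 on mm10 (percentile 80.2 among bound genes) to 85.4 on mm9 (percentile 32.4). The causes of these differences were not tested.

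The promoters of these genes were rich in CpG. The CpG ratio is the number of CG pairs in 500 bp to each side of the most upstream M1 start, divided by the number expected from the C and G content. The median ratio was 0.838, against 0.559 over all genes, and 60 of 77 lay in the upper 2 of 5 equal bins of all genes. In the upper 4 bins the bound shares were closer to the background than the shares over all bins were. In the top bin 33 of 44 were bound (75%, interval 59.7 to 86.8%), beside 66% of all genes there, and in the next 9 of 16, beside 61.9%. In the third bin it was 4 of 9, beside 40.1%, in the second 1 of 7, beside 14.1%, and in the lowest 1 of 1, beside 5.58%. That 1 gene was Ube2l3, whose bound start is not the most upstream one. If each bin had the share of all genes, 43.6 of the 77 would be bound, against the 48 counted. 

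**Figure D4:**
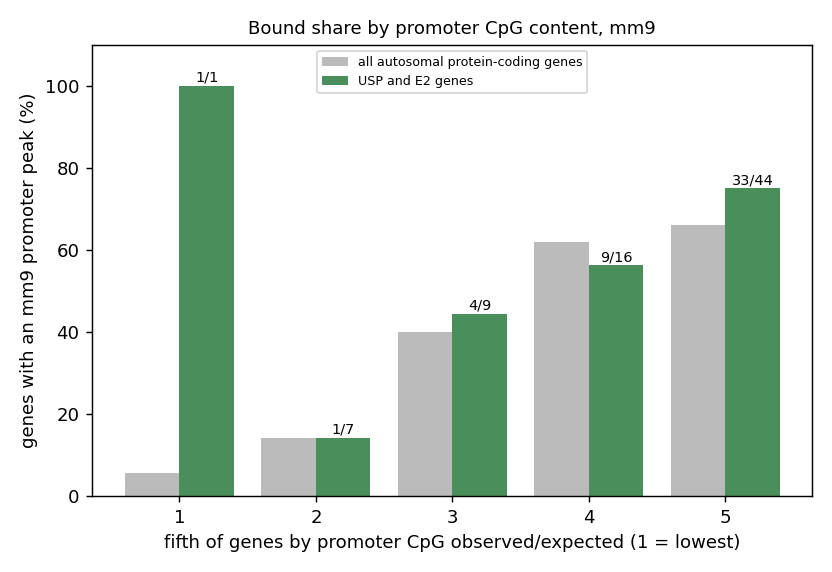
Percent of genes with an mm9 promoter peak in 5 bins of CpG ratio, from the lowest to the highest, for these genes (green bars, with bound and total genes written above) and for all autosomal M1 protein-coding genes (grey bars). The background rises from 5.58% to 66%, and these genes follow it from the second bin to the top bin, where 33 of 44 were bound.

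The full ETS word CCGGAAGT, on either strand (ACTTCCGG), was uncommon at the summits. It lay within 50 bp of the mm9 summit at 5 of 48 promoter peaks (10.4%), beside 13.1% of 7107 promoter peaks. At equally long stretches centred 500 bp from the summits it was in 0 of 96, beside 0.169%. By an approximate rule, 3 over the number of stretches and not an exact interval, that count allows a share of up to 3.12%. The shorter CGGAA, which the full word contains, was at 35 of 48 (72.9%), beside 61.9%, and at 15.6% of the side windows, beside 9.67%. Within 25 bp CGGAA was at 19 of 48 (39.6%), beside 45.3%, and within 100 bp at 38 of 48 (79.2%), beside 69.6%. Whether its share lay above or below that of all promoter peaks thus turned with the window. The core GGAA was at 41 of 48 (85.4%), beside 91.1%, and at 64.6% of the side windows, beside 65.0%. The 5 genes with the full word were Usp16, Usp30, Usp32, Ube2n and Ube2v2, chosen for printing after their values were seen. A match is a run of letters and not a measured site.

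The windows with the full word are given on the strand of the gene, with the word in capitals, to be read beside that of Usp32 above. They lie at chr16:87455196-87455225 on the plus strand (Usp16), chr5:114550242-114550342 on the plus strand (Usp30), chr10:94977690-94977790 on the plus strand (Ube2n) and chr16:15594595-15594695 on the minus strand (Ube2v2), on mm9. The Ube2q1 window, the strongest mm9 peak with a divergent partner, lies at chr3:89577217-89577317 on the plus strand and holds CGGAA in capitals.
Usp16: ccatttcccacaatgccgcgttCCGGAAGT
Usp30: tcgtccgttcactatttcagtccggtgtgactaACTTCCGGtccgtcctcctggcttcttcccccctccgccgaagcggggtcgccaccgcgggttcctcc
Ube2n: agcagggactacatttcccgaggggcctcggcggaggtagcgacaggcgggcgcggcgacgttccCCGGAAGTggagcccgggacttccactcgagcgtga
Ube2v2: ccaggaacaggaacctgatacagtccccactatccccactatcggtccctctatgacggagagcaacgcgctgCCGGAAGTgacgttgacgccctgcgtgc
Ube2q1: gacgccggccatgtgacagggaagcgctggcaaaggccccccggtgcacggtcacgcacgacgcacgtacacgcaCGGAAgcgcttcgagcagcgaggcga
The word runs in the direction of the gene in Usp16, Ube2n and Ube2v2 and against it in Usp30. The windows of Usp45 and Usp31, the other bound mm9 genes with a partner, held no CGGAA in the bases that could be shown. Signals ranged widely over these peaks: the mm9 signal was 578 in Usp32, 414 in Usp16, 301 in Ube2n, 119 in Ube2v2 and 73.3 in Usp30. In the RefSeq promoter windows (GRCm38.p6), which run from a little before to just after the start, the full word was in 5 of 61 of these genes with a sequence, beside 5.84% of 16457. Among the bound it was 5 of 45, beside 12.1%, and among the unbound 0 of 16, beside 1.54%.

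Other genes of the ubiquitin system were also mostly bound. Over lists written for the rest of the pathway 84 of 105 genes (80%) had a promoter peak in the optimal list, beside 40.3%, with a median signal of 117. All ubiquitin precursor genes were bound (4 of 4), among them Rps27a (158), which fuses ubiquitin to a ribosomal protein. The E1 list had 8 of 9, with Atg7 at 575 and Uba6 at 349, and Nae1, a subunit of the NEDD8 E1, unbound. Other E2-fold genes had 5 of 6, with Cdc34 at 406 and Atg3 at 392, and Aktip unbound. These signals of Atg7, Cdc34 and Atg3 were above that of every Usp and Ube2 gene. Among the bound pathway genes named here and below, some have a divergent partner. These are Rps27a (with Clhc1), Atg3 (Slc35a5), Uchl5 (Ro60), Bap1 (Phf7), Eny2 (Nudcd1) and Arel1 (Fcf1). Their signals cannot be assigned to them alone.

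Most genes listed for the other deubiquitinase families were bound too. The UCH list had 3 of 4 (Uchl5 152, Bap1 128; Uchl1, known from neurons, unbound) and the OTU list 10 of 13 (Otulin 411, Vcpip1 395; Otub2, Otud7a and Yod1 unbound). Josephin genes had 3 of 3 (Josd2 455, Atxn3 22.6). The list named for JAMM metalloproteases had 7 of 10, with Eif3f at 273 and Psmd14 at 244, and Stambp, Stambpl1 and Mpnd unbound. That list also takes in Eif3f, Eif3h, Psmd7 and Cops6, which lack the JAMM protease motif and were all bound. Its count is thus not one of proteases alone. The cofactors of Usp proteins had 4 of 7. Of these Eny2 (132) belongs with Usp22 in SAGA and Wdr48 (129) activates Usp1, Usp12 and Usp46, while Wdr20, Atxn7 and Sgf29 were unbound.

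The ligase lists were bound as well. RING ligases that partner these E2 enzymes had 14 of 14, with Traf6 at 282 and Rnf4 at 240. HECT and RBR ligases had 16 of 21, with Arel1 at 430 and Rbck1, a subunit of the linear chain complex that works with Ube2l3, at 417. Herc1, Nedd4l, Trip12, Arih1 and Arih2 were unbound. The cullin core had 10 of 14, with Cul3 at 194 and Elob at 131, and Cul5, Cul9, Skp1 and Dcun1d1 unbound.

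The count of bound genes moved with the window and the list, and the background moved with it. Within 500 bp 50 of 78 were bound, beside 37%, and within 2 kb 61, beside 43.4%. The conservative list gave 54, beside 39.8%, and the stronger 50% of the optimal peaks, by signal, 41, beside 32.6%. With every RefSeq start of the promoter table the count was 61, beside 43.6%. On mm9 the counts were 44 of 77 within 500 bp, beside 35.6%, 50 within 2 kb, beside 39.5%, 46 with the most upstream start alone, beside 35%, and 40 with the stronger 50% of peaks, beside 27.7%. Under all settings tried on mm10, 37 genes were bound and 11 unbound throughout.

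**Figure D5:**
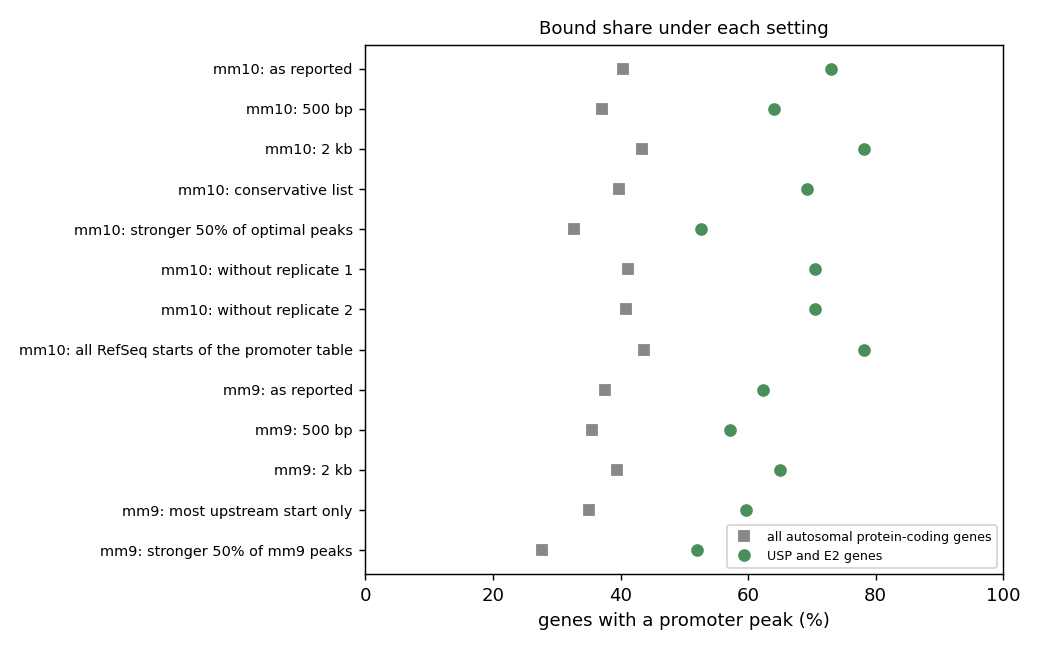
Percent of genes with a promoter peak under each setting, for the 78 genes (77 on mm9; circles) and for all autosomal protein-coding genes (squares). The share of these genes was above the background in every setting shown, from 41 to 61 genes bound on mm10 and from 40 to 50 on mm9.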

How the data were processed

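ELF1 ChIP-seq of CH12.LX cells was deposited as narrowPeak lists from 2 biological replicates of 1 group. Per the deposited README text, the relaxed mm10 lists came from each replicate or both, the optimal and conservative lists from those by reproducibility rank, and the mm9 list from both replicates together. The aligner is not given in the sources used here, nor is the peak caller. Column 7 is the signal that the authors' caller gave each peak, on an unstated scale, and was compared only within a list or as a ratio of replicates. Read counts were not used here.

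The analysis ran in Python 3.11.15 with numpy 2.4.6, pandas 2.3.3, scipy 1.17.1 and matplotlib 3.10.9. Positions count from 1, and each build kept its own annotation. For mm10, 5′ ends came from a RefSeq table of GRCm38.p6 without strand. Strand came from the RefSeq promoter table (16457 genes) or, from the GENCODE M1 entry with that symbol or a synonym (3538 and 369 genes), so 20364 of 20665 genes had one. All 78 genes described had a strand, 61 from the promoter table. For mm9, all GENCODE M1 starts of protein-coding genes and the NCBIM37 sequence were used. Where several summits lay within 1 kb, the strongest gave the signal. A replicate's value is the nearest relaxed summit within 100 bp.

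On simulated data only the call of a summit within 1 kb of a start was tested, and the other steps were not. With 1 group there is no test between conditions, and the genes were described by counts, medians and exact (Clopper-Pearson) binomial intervals beside all genes. Neighbouring genes can share a peak, so genes are not independent. The genes and lists were chosen with earlier results of these data known. Values are given for the 12 strongest and 3 weakest bound genes of each family, every unbound gene, every gene with a divergent protein-coding partner, every gene whose status differed between builds, and the 2 strongest and up to 6 unbound genes of each pathway list. Other values were added by role. Some genes that this rule names are not reported here. Alternatives were other windows, lists, starts and word lengths and leaving out a replicate. Those with all RefSeq starts and without shared peaks, and the match distances of 50 and 200 bp, were chosen after seeing the data.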

Additional observations from a re-analysis of the deposited data

How the results depend on the processing

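The count of bound genes on mm10 stayed within 1.5 times its reported value under each setting tried, from 41 to 61, and on mm9 from 40 to 50. Leaving out replicate 1 or replicate 2, by taking the strongest 29086 entries of the other, gave 55 and 55 bound genes, though 4 and 3 of the reported 57 were lost and Usp22 was gained in both. Counting divergent partners of any biotype on mm9 gave 15 genes (19.5%, beside a background of 17.5%) in place of 7 (9.09%, beside 12.2%), which turned the share from below to above the background. The ETS word count of 5 was 3 within 25 bp, and 35 and 41 with the shorter words CGGAA and GGAA, which are contained in it. The median signal ran from 112 to 137. Weak peaks, the missing depth and 1 start a gene on mm10 limit the status of single genes. No paired analysis was possible because there was 1 group.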
